A study of Saccharomyces cerevisiae with 9 samples.

Results

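The wild-type transcript levels of budding yeast growing in rich medium were taken from the 3 arrays titled wild-type, out of 9 arrays in the series. The mutant arrays were not used. All 3 cultures were of strain JPY12 and carried a plasmid-borne histone H3 gene of wild-type sequence. The study's H3 mutants share the strain and the plasmid. They received no other treatment, were started from overnight cultures, grew to log phase in YPD (yeast extract, peptone and glucose) and gave 1 array each. The design text calls them reference strains, and whether they came from 1 clone is not given in the sources used here. Nor is the genotype of the strain at its marker genes or mating type. Each S. cerevisiae gene with a probe set of its own was ranked by its mean log2 signal over the 3 arrays, which gave 5449 genes from 5498 probe sets. A rank is one of signal and not of mRNA molecules, because probe sets differ in how strongly they bind. With 3 arrays, small differences in signal cannot be resolved.

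Yeast that grows fast on glucose ferments most of it to ethanol, even in air, and spends much of its transcription on ribosomes. Glucose also holds down genes for other carbon sources, for gluconeogenesis and for much of respiration. Meiotic genes are switched off in growing haploid cells, and each mating type keeps the genes of the other type silent. Genes for making amino acids, purines and transporters of phosphate and metal ions are set by what the medium supplies.

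The trimmed mean signal was 150.1 on each of the 3 arrays, so the deposited values had been scaled to a common mean. The median signal over all genes was 168.2 in replicate 1, 170.7 in replicate 2 and 168 in replicate 3. Probe sets for another yeast species, which have no target in these cells, had a median of 1.3 in replicate 1 against 2.7 and 2.2 in replicates 2 and 3. The 95th percentile of these probe sets was taken as the background level, and it was 5.07 in replicate 1 against 9.6 and 8.8 in replicates 2 and 3. The spike-in controls are probe sets for bacterial and phage transcripts. Their mean signal over 27 probe sets was 816 in replicate 1 against 505 and 515 in replicates 2 and 3. Replicate 1 thus had the dimmest background and the brightest spike-ins. The spike-in signal was not shown to follow the amount of yeast RNA, so scaling to it is not a calibration of RNA levels. The ratio of the 3′ to the 5′ probe set of ACT1, a sign of RNA length, was 1.18 in replicate 1 against 1.18 and 1.19 in replicates 2 and 3. That of TDH1 was 1.48 in replicate 1 against 1.56 and 1.54 in replicates 2 and 3. Other genes with such probe sets differed more, with no common direction. The ratio of EAF5 was 2.15 in replicate 1 against 0.848 and 1.07 in replicates 2 and 3, that of RIP1 0.732 in replicate 1 against 1.09 and 0.916 in replicates 2 and 3, and that of SRB4 2.53 in replicate 1 against 3.29 and 3.60 in replicates 2 and 3.

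**Figure D1:**
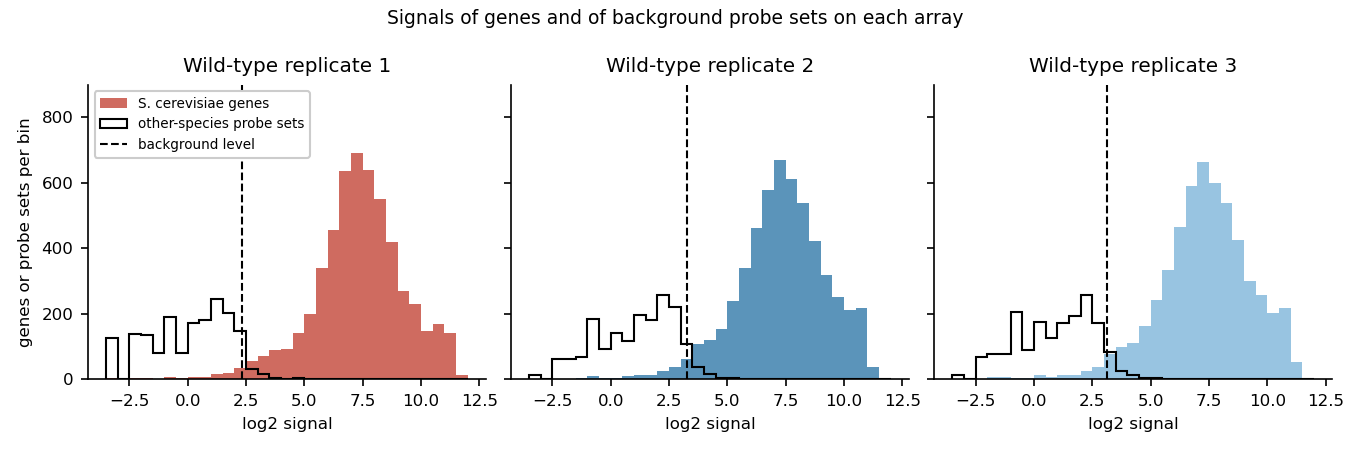
Number of genes (filled) and of probe sets for another species (black outline) per bin of log2 signal, with 1 panel for each wild-type array; the dashed line is the background level of 5.07, 9.6 or 8.8. Nearly all gene signals lie right of the dashed line on each array.

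Ribosomal proteins, glycolytic enzymes and translation factors gave the brightest signals. Signals near the top lay close together: the mean signal was 2991 at rank 1, 2514 at rank 10 and 1980.4 at rank 100, against a median of 168.2 over all genes. The 100 brightest genes held 11.9% of the summed gene signal and the top 10%, 545 genes with a signal of at least 913, held 44.7%. Of the 100 brightest genes 58 encode proteins of the cytosolic ribosome, 32 of the large and 26 of the small subunit. Another 10 belong to glycolysis and ethanol formation. Translation elongation, heat shock chaperones and cell wall proteins gave 4 each, and 12 belong to none of the 60 gene lists. The lists hold 1605 of the 5449 genes. Of each array's own 100 brightest genes, 79 were the same on all 3 arrays.

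The brightest gene on the mean over the arrays was HIS3 (YOR202W), an enzyme of histidine synthesis, with signals of 3171 in replicate 1 against 2872 and 2938 in replicates 2 and 3. It ranked 4 in replicate 1, behind RPS21A, RPL3 and RPS15, and 1 in replicates 2 and 3. Its other pathway members ranked well below it: HIS1 ranked 373 and HIS6 ranked 3469. HIS3 is also often used as a marker in yeast strains, and the genotype of this strain there is not given. The source of the HIS3 signal was not tested. Among the 25 brightest genes 14 encode ribosomal proteins: RPS21A, RPL3, RPS15, RPS8A, RPS8B, RPL16A, RPL11B, RPS21B, RPL29, RPS0B, RPL2A, RPS6B, RPL34A and RPS4B. RPS21A (YKR057W) had 3436 in replicate 1 against 2684 and 2685 in replicates 2 and 3. RPL3 (YOR063W), a protein of the large subunit, had 3232 in replicate 1 against 2549.9 and 2618 in replicates 2 and 3. The others of the 25 were the elongation factors YEF3, TEF2 and EFT2, the glycolytic genes PGK1, TPI1 and ENO2, the ribosome-bound chaperones SSB1 and SSB2, actin (ACT1) and TMA19, a ribosome-associated protein. Actin (YFL039C), at rank 10, had 2909 in replicate 1 against 2286 and 2388 in replicates 2 and 3.

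Nearly the whole set of cytosolic ribosomal protein genes was bright. Of 128 measured genes 123 lay in the top 10% of all genes. The median percentile was 98.1 for the 53 small subunit genes and 97.8 for the 75 large subunit genes, on a scale where the brightest gene is at 100. The 5 genes below the top 10% were RPL9B, RPL22B, RPS9A, RPL41A and RPL15B, each one copy of a gene that yeast carries as a pair, and they were singled out after their values were seen. RPL15B had 194 in replicate 1 against 149 and 177 in replicates 2 and 3 and RPS9A had 452 in replicate 1 against 518 and 499.9 in replicates 2 and 3. Probe sets of near-identical copies can bind both transcripts, so the signal of 1 copy is uncertain. Ribosome biogenesis genes, which process ribosomal RNA and assemble subunits, were less bright, with a median percentile of 76.2 over 94 genes and 9 genes in the top 10%. The 71 mitochondrial ribosomal protein genes had a median percentile of 52.4, with 0 in the top 10%.

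Of the 18 glycolysis and fermentation genes 15 lay in the top 10%, and their median percentile of 98.5 was the highest of the 60 lists on the mean over the arrays. In replicate 1 it was 98.78 against 98.05 and 98.30 in replicates 2 and 3, and in replicate 2 elongation and small subunit genes lay above it, at 98.22 and 98.15. PGK1 (YCR012W), phosphoglycerate kinase, had 2946 in replicate 1 against 2326 and 2408 in replicates 2 and 3. TPI1 (triosephosphate isomerase) and ENO2 (enolase) ranked 13 and 23. On the way from pyruvate to ethanol, the decarboxylase PDC1 had 2682 in replicate 1 against 1900.0 and 2053 in replicates 2 and 3, and the alcohol dehydrogenase ADH1 had 2434 in replicate 1 against 1901 and 1949 in replicates 2 and 3. The dimmest member was PDC5, a second pyruvate decarboxylase, with 360.3 in replicate 1 against 521 and 475 in replicates 2 and 3. The hexokinase gene HXK2 ranked 140, and HXK1, for another hexokinase, ranked 817.

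Translation factors were close behind. The 9 elongation genes had a median percentile of 98.0, with 7 in the top 10%, led by YEF3 (YLR249W) at 2904 in replicate 1 against 2452 and 2483 in replicates 2 and 3. HEF3, a second copy of that factor, was the dimmest with 41.5 in replicate 1 against 49.4 and 46.8 in replicates 2 and 3. The 20 initiation genes had a median percentile of 91.7, from TIF2, an RNA helicase subunit, at rank 48 to TIF4632 at rank 2057. The 20 aminoacyl-tRNA synthetase genes all lay between the percentiles 88.7 (WRS1) and 97.0 (DED81), and 19 were in the top 10%. Of 25 chaperone genes 15 were in the top 10%, with SSB1, SSB2, SSA2 and SSE1 brightest, while the dimmest, SSE2, ranked 3113.

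Genes of some routes of amino acid synthesis were bright as well, and others lay lower. The 11 branched-chain genes had a median percentile of 94.2, and ILV5 (YLR355C), which acts in isoleucine and valine synthesis, had 2259.7 in replicate 1 against 1957 and 2027 in replicates 2 and 3. LEU1, BAT1 and ILV2 ranked 195, 228 and 234, and the dimmest was LEU9 at rank 1217. Among 21 other amino acid genes, ASN1 (asparagine synthetase) led at rank 64, followed by HOM2, GLN1 and GDH1, and GDH3, the glutamate dehydrogenase used away from glucose, was dimmest at rank 4408. The median percentile was 84.4 for 19 aromatic amino acid and histidine genes, 69.3 for 17 arginine and lysine genes and 56.1 for 29 genes of sulphate and methionine. LYS9 ranked 42, the brightest of the arginine and lysine genes, while LYS2 of the same list had 5.3 in replicate 1 against 14.3 and 17.4 in replicates 2 and 3. Of the other genes often used as markers in yeast strains, LEU2 had 1837 in replicate 1 against 1641 and 1639.9 in replicates 2 and 3, URA3 had 526 in replicate 1 against 436 and 439 in replicates 2 and 3, and MET17 had 260.4 in replicate 1 against 138 and 132 in replicates 2 and 3.

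Cell surface and cell structure genes also lay high. The 26 cell wall protein genes had a median percentile of 94.5, with CCW12, SCW4, SED1 and HSP150 among the 100 brightest and PIR3 dimmest at rank 3048. The 19 genes of the plasma membrane proton pump and the vacuolar ATPase had a median percentile of 93.2. Sterol synthesis had 90.5 over 25 genes, from ERG11 at rank 224 to ERG7 at rank 1511. The 10 histone genes had a median percentile of 92.8, led by HTA1 (H2A) with 2007 in replicate 1 against 1870.4 and 1941 in replicates 2 and 3. The H3 gene HHT2 (YNL031C) had 1739 in replicate 1 against 1633 and 1683 in replicates 2 and 3. HHT1, the other H3 gene, had 1 in replicate 1 against 13.1 and 4.3 in replicates 2 and 3, which passed background in replicate 2 alone, and no probe set can tell a plasmid copy from a chromosomal one.

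**Figure D2:**
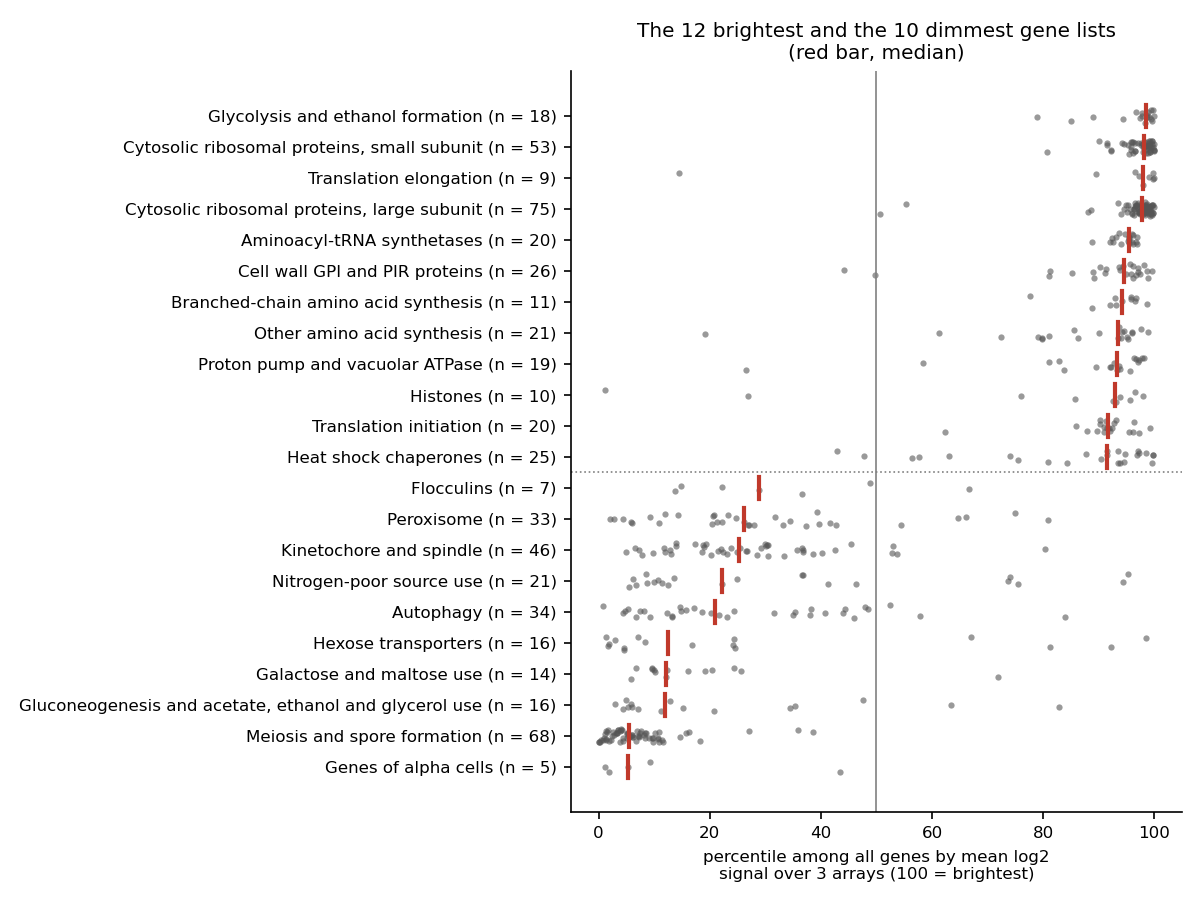
Percentile of each member gene (grey points) by mean log2 signal over the 3 arrays, for the 12 gene lists of highest and the 10 of lowest median; red bars are medians and the vertical line marks the 50th percentile. Glycolysis has a median of 98.5, and genes of alpha cells and of meiosis have 5.21 and 5.54.

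Between these ends lay the machinery that is neither abundant nor shut off. Median percentiles were 88.7 for 34 proteasome genes, 87.9 for 19 purine genes, 86.6 for 11 subunits of RNA polymerase II and 77.9 for 21 genes of the TCA and glyoxylate cycle. Respiratory chain genes spread widely, with a median of 69.9 over 37 genes: ATP1, a subunit of ATP synthase, ranked 323, and NDE2, an NADH dehydrogenase, ranked 5267. DNA replication, cyclin and chromatin genes sat near the middle, with medians of 50.8, 50.1 and 48.1. Of the 60 lists 13 had a median percentile of at least 90, and 7 had one of at most 25. Over the 3 arrays the median percentile had an SD of 0.369 for glycolysis, 0.0106 for the small subunit and 0.115 for meiosis (n = 3 arrays). The SD was largest for the 6 marker genes, at 13.8, and for copper and zinc uptake, at 10.8.

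The 7 dim lists were those of alternative nutrients, hexose transporters, autophagy, meiosis and the other mating type. The 16 genes of gluconeogenesis and of acetate, ethanol and glycerol use had a median percentile of 11.99, with 0 in the top 10%. FBP1 (fructose bisphosphatase) had 14.2 in replicate 1 against 24.4 and 14 in replicates 2 and 3, PCK1 (phosphoenolpyruvate carboxykinase) had 53.6 in replicate 1 against 71.6 and 70.3 in replicates 2 and 3 and JEN1 (lactate permease) had 14.2 in replicate 1 against 31.5 and 22.9 in replicates 2 and 3. ADH2 of the same list lay higher, at rank 1997, with 212.3 in replicate 1 against 278.5 and 273.4 in replicates 2 and 3. ALD4, an aldehyde dehydrogenase, was the brightest with 365 in replicate 1 against 635 and 712 in replicates 2 and 3, and STL1, a glycerol transporter, the dimmest at rank 5293. The 14 galactose and maltose genes had a median percentile of 12.2, with GAL1, GAL7 and GAL10 at ranks 4923, 4572 and 4777. GAL80, the repressor of the galactose genes, ranked 1532, and GAL3, the galactose sensor, was dimmest. All 14 lay above background on each array, as did 97% of all genes. Nitrogen-poor source genes had a median of 22.2 over 21 genes, from CAR1 (arginase) at rank 257 to DAL80 at rank 5147. The 34 autophagy genes had a median of 20.9, from ATG27 at rank 873 to ATG16, which was at background on all 3 arrays.

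Hexose transporters split into a bright few and a dim majority. HXT3 (YDR345C), a low-affinity glucose transporter, had 2260.0 in replicate 1 against 1942 and 1953 in replicates 2 and 3. HXT2, HXT1 and HXT4 followed at ranks 421, 1028 and 1794. The high-affinity transporter HXT7 had 37.5 in replicate 1 against 113 and 105 in replicates 2 and 3, and HXT15 was the dimmest, at background on all 3 arrays. Over the 16 measured genes the median percentile was 12.5, and HXT6, a near-identical copy of HXT7, had no probe set of its own, so the signal of HXT7 is uncertain.

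The cells carried the transcripts of mating type a. The 7 marker genes of a cells had a median percentile of 83.9, against 7.23 for the 4 markers of alpha cells. All 7 lay above background on each array, as did 3 of the 4 markers of alpha cells and 97% of all genes. The a-cell markers had a summed signal of 6595 in replicate 1 against 5549.7 and 5629.8 in replicates 2 and 3. STE2 (YFL026W), the receptor for alpha-factor, had 2088 in replicate 1 against 1809 and 1839 in replicates 2 and 3. The pheromone gene MFA2 had 1772 in replicate 1 against 1376 and 1339.5 in replicates 2 and 3, and MFA1 had 843 in replicate 1 against 452 and 540.3 in replicates 2 and 3, while BAR1, AGA2 and STE6 ranked 642, 981 and 1058. ASG7, the dimmest of the 7, ranked 3653, below SAG1 of the alpha-cell markers at rank 3080, so the 2 sets overlapped. The 4 markers of alpha cells summed to 170 in replicate 1 against 212 and 199 in replicates 2 and 3, most of it from SAG1 at 121 in replicate 1 against 153 and 153 in replicates 2 and 3. STE3, the receptor of alpha cells, had 29 in replicate 1 against 29.6 and 27.3 in replicates 2 and 3, and the pheromone genes MF(ALPHA)1 and MF(ALPHA)2 ranked 5344 and 5165, with MF(ALPHA)1 above background on 2 of the arrays. No marker of alpha cells was at 0. In bulk cultures, fewer cells of a type and less RNA per cell cannot be told apart.

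Genes of meiosis and spore formation were nearly all dim. The 68 measured genes had a median percentile of 5.54, and the brightest, SPO73, only reached rank 3347 with 133 in replicate 1 against 117 and 119 in replicates 2 and 3. IME2, a kinase that promotes meiosis, had 46.8 in replicate 1 against 51.1 and 52.7 in replicates 2 and 3, and NDT80, the regulator of its middle genes, had 16.5 in replicate 1 against 16.7 and 14.1 in replicates 2 and 3. SPO11, which makes the DNA breaks of recombination, and DMC1, which repairs them, ranked 4955 and 5030. Of the 68 genes 51 were above background on all 3 arrays and 10 were at background on all 3, which is 14.7% against 1.39% of all genes. The 10 were REC114, MND1, SPO77, HOP2, IME4, ZIP2, GMC2, CSM4, SAE3 and MEI5, most of them known from meiotic recombination and chromosome pairing. MEI5, the dimmest of the list, had 1.8 in replicate 1 against 0.2 and 0.4 in replicates 2 and 3.

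Of all 5449 genes 5283 (97%) lay above background on each of the 3 arrays, 90 on some and 76 (1.39%) on none. The share above background on a single array was 98.3% in replicate 1 against 97.5% and 97.6% in replicates 2 and 3. Of the 76 genes 51 have only a systematic name: 10.2% of the 499 genes without a name were at background, against 0.505% of 4950 named genes. The named genes outside the meiosis list were YPT53, BRN1, CRF1, HXT15, FMT1, HMLALPHA1, BSC4, IRC15, AIM26, ATG16, GAT3, PFS1, FYV12, TDA8 and COS12, all given here after their values were seen. BRN1 encodes a condensin subunit that growing cells need, and its probe set had 5 in replicate 1 against 8.1 and 5.9 in replicates 2 and 3, so a signal at background does not show that a gene is silent. Genes near chromosome ends were dim as a group. Among the 10 outermost genes at each of 32 ends, 235 were measured, and 10 of these (4.26%) were at background against 66 of the other 5214 genes (1.27%). Their median percentile was 21.8, and 6 of them (2.55%) lay in the top 10%.

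The labels do not set replicate 1 apart, and 1 array against 2 allows no test, so its differences are given by size alone. A gene was counted where replicate 1 differed at least 2-fold from each of replicates 2 and 3, among the 4087 genes with a mean signal of at least 77.9. By this rule 19 genes (0.465%) were higher in replicate 1 and 13 (0.318%) were lower, 32 in all (0.783%). Single pairs of arrays differed 2-fold in 34 genes (0.832%) for replicates 1 and 2, in 44 genes (1.08%) for replicates 1 and 3, and in 2 genes (0.0489%) for replicates 2 and 3. The SD of the log2 difference across the genes was 0.32, 0.31 and 0.11 for these pairs. Spearman's rho across genes, which are not independent replicates, was 0.962, 0.964 and 0.995. Scaled to the spike-ins, the median difference of all genes examined was -0.90, against -0.01 as deposited, so list medians are read against that of all genes. Spike-in scaling left 4 genes at least 2-fold higher, all among the 19, and 1213 lower. On the mean difference each of the 32 genes kept its direction under quantile and cyclic loess scaling. Median centring and spike-in scaling move all genes by the same amount. That amount was smaller than the difference of any of the 32, so these scalings could not turn a direction. Spike-in scaling left RIP1 at 0.12, SER3 at 0.18 and PDR12 at 0.23. Replicates 2 and 3 lay closer to each other than either did to replicate 1. The dimmer background and brighter spike-ins of replicate 1 moved with these differences, and their part in them was not tested.

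**Figure D3:**
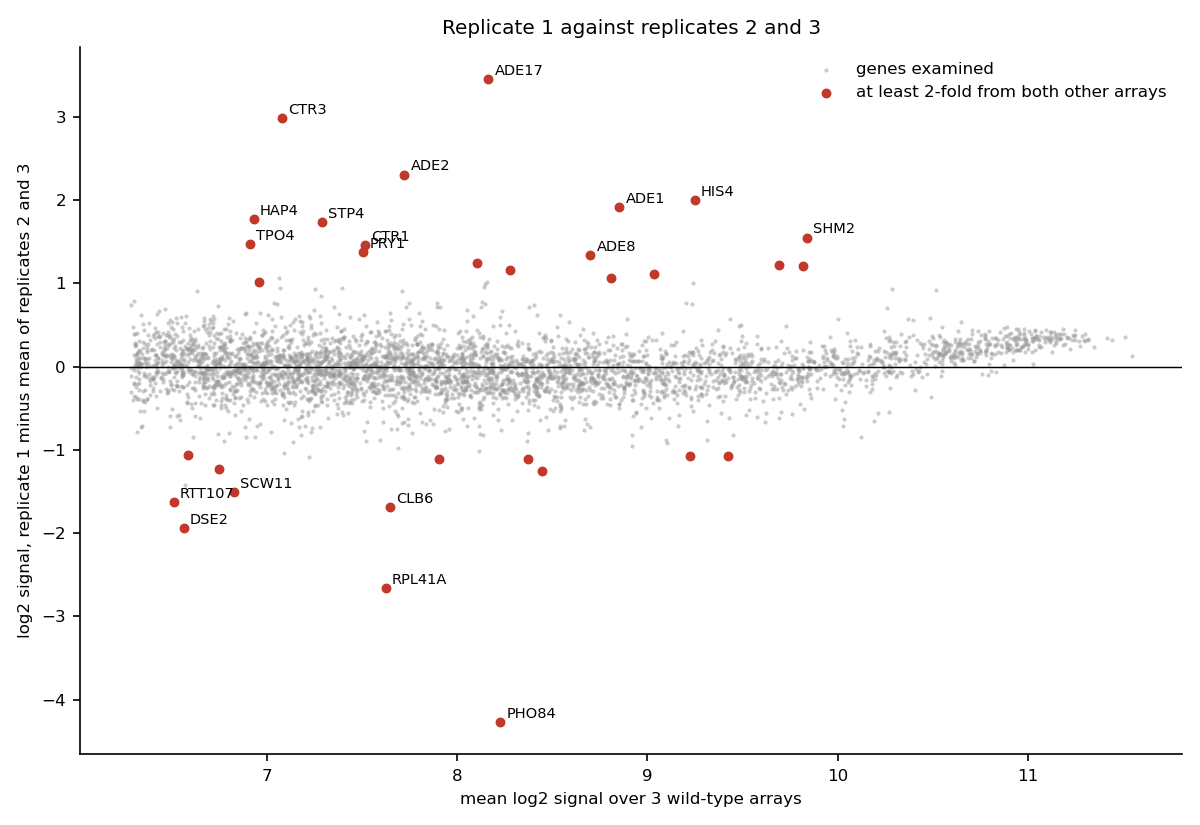
Log2 signal of replicate 1 minus the mean of replicates 2 and 3 (vertical axis) against the mean log2 signal over the 3 arrays, for the 4087 genes examined; red points are the 32 genes at least 2-fold apart from both other arrays, named where they lie farthest from 0. ADE17, CTR3 and ADE2 are the highest points and PHO84 is the lowest.

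Purine synthesis genes stood at the top of the genes higher in replicate 1. The pathway builds inosine monophosphate in a chain of steps, then turns it into AMP or GMP, and is known to be held down where adenine is supplied. Of 19 measured genes 6 were counted higher (31.6%, against 0.465% of all genes examined) and 0 lower, the only one of the 60 lists with at least 25% of its examined genes counted, though 3 lists had that share without replicate 2, 5 at 1.5-fold, 0 at 4-fold and 29 with spike-in scaling. The 60 lists were chosen with earlier results of these data known, so the share of the purine list is no independent support. With spike-in scaling ADE8, ADE12 and ADE13 differed by 0.45, 0.32 and 0.33 and were not counted. The median difference of the purine list was 0.27 on the log2 scale, against -0.01 over all genes examined, and -0.62 against -0.90 when scaled to the spike-ins. ADE17 (YMR120C), which carries out the last 2 steps to inosine monophosphate, had 1415 in replicate 1 against 137 and 122 in replicates 2 and 3, a log2 difference of 3.46. ADE16, its isozyme, had 771 in replicate 1 against 743 and 783 in replicates 2 and 3, a difference of 0.02.

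Of 5 genes of earlier steps, ADE8, ADE2 and ADE1 were counted and ADE4 and ADE6 were not, and the gene that encodes a further enzyme of these steps was not measured. ADE4, which takes the first step, had 318 in replicate 1 against 177 and 164 in replicates 2 and 3 and lay just under 2-fold. ADE8 had 772 in replicate 1 against 310.1 and 300.1 in replicates 2 and 3, and ADE6 had 1923 in replicate 1 against 1009 and 999 in replicates 2 and 3, again just under. ADE2 (YOR128C), the carboxylase whose loss colours colonies red, had 613 in replicate 1 against 129 and 119 in replicates 2 and 3, a log2 difference of 2.31. ADE1 (YAR015W), the next enzyme, had 1123 in replicate 1 against 289.7 and 304 in replicates 2 and 3, a difference of 1.92. ADE13, which acts both before inosine monophosphate and on the way to AMP, had 1455 in replicate 1 against 632 and 616 in replicates 2 and 3, and ADE12, the first step to AMP, had 1579.5 in replicate 1 against 693 and 669 in replicates 2 and 3. On the branch to GMP the genes did not follow: IMD2, an IMP dehydrogenase with near copies elsewhere in the genome, had 312 in replicate 1 against 650.2 and 558 in replicates 2 and 3, a difference of -0.95, while IMD3, IMD4 and GUA1 differed by 0.16, 0.13 and 0.15. The 5 PRS genes, which make the phosphoribosyl donor, differed by -0.32 to 0.32. Between replicates 2 and 3 all 19 genes lay within 0.22 of each other.

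Histidine and one-carbon genes held further high members. HIS4 (YCL030C), an enzyme of several steps of histidine synthesis, had 1536 in replicate 1 against 404 and 363 in replicates 2 and 3, a difference of 2.004. HIS5 had 458 in replicate 1 against 230.4 and 221 in replicates 2 and 3 and missed the count by little. HIS3, which is also a marker gene, differed by 0.13. SHM2 (YLR058C), the cytosolic serine hydroxymethyltransferase that feeds one-carbon units into purines, had 1877 in replicate 1 against 657 and 624 in replicates 2 and 3. GCV3 and MTD1 of the same list were under 2-fold against replicate 2, with differences from the mean of 1.01 and 0.96, and GCV1, at 158 in replicate 1 against 59.2 and 48 in replicates 2 and 3, was under the signal needed to be examined. Of 10 examined one-carbon genes 1 was counted higher and 0 lower (10%), against 0.783% of all genes. SHM1, the mitochondrial counterpart of SHM2, differed by 0.11, and CHA1, which breaks down serine and threonine, was the lowest at -0.98. The transcription factor genes BAS1 and PHO2 have products known to act together on ADE and HIS genes. BAS1 had 319 in replicate 1 against 359 and 349.9 in replicates 2 and 3, and PHO2 had 52.1 in replicate 1 against 72.9 and 64.9 in replicates 2 and 3. ADE6, ADE4, HIS5, GCV1, BAS1 and PHO2 were picked for mention with their values known.

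Both genes for high-affinity copper transporters of the plasma membrane were higher in replicate 1. CTR3 (YLR411W) had 536 in replicate 1 against 59.1 and 77.8 in replicates 2 and 3, a difference of 2.98. CTR1 (YPR124W) had 359 in replicate 1 against 128 and 133 in replicates 2 and 3, a difference of 1.46. They were 2 of 14 examined genes of the copper and zinc list (14.3%, against 0.783% of all genes counted in either direction). The other 12 were not counted, among them CTR2, the vacuolar copper transporter, at 0.11 and the metallothionein CUP1-1 at -0.10. MAC1, the activator of the copper transporter genes, differed by -0.09.

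In the phosphate list 13 of 19 examined genes lay below 0, against 51.4% of all genes examined, and 6 lay above. PHO84 (YML123C), the high-affinity phosphate transporter that is induced when phosphate runs short, had 41.6 in replicate 1 against 756 and 852 in replicates 2 and 3, a log2 difference of -4.27 and the largest of the 32. PHO89, another such transporter, had 3.6 in replicate 1 against 35.2 and 30.7 in replicates 2 and 3 but lay under the signal needed to be examined. VTC3 and VTC4, which make polyphosphate, differed by -0.89 and -0.66, and PHO11, an acid phosphatase, by -1.08. PHO5, the classic phosphatase of this response, had 67.7 in replicate 1 against 94.6 and 84.2 in replicates 2 and 3, and the constitutive transporters PHO87, PHO90 and PHO91 differed by -0.28, -0.31 and -0.03. PHO3, an acid phosphatase set by thiamine rather than phosphate, was higher with 529 in replicate 1 against 256 and 219.9 in replicates 2 and 3. Of 19 examined genes 1 was counted higher and 1 lower (10.5%, against 0.783% of all genes examined), and the median difference was -0.12.

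**Figure D4:**
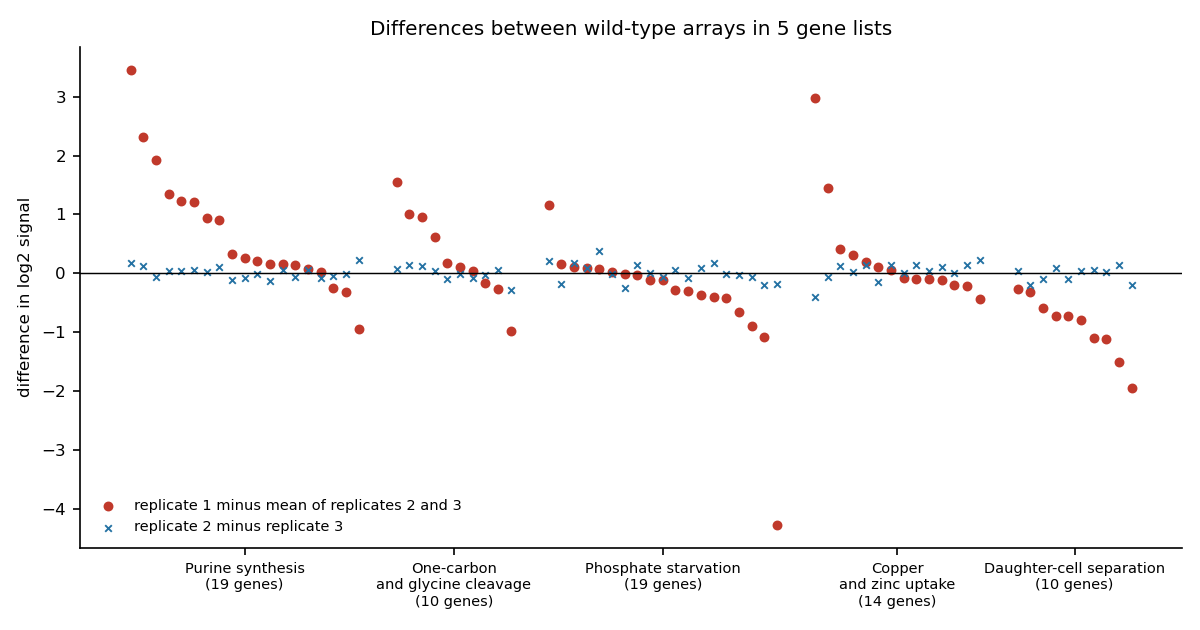
Difference in log2 signal of each examined gene of 5 lists; red points are replicate 1 minus the mean of replicates 2 and 3, and blue crosses are replicate 2 minus replicate 3. Red points reach 3.46 in purine synthesis and -4.27 among phosphate genes, while the crosses stay near 0.

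The remaining genes higher in replicate 1 had mixed roles. HAP4, the glucose-repressed activator of respiratory genes, had 277 in replicate 1 against 84.1 and 78 in replicates 2 and 3. RIP1, an iron-sulphur subunit of the respiratory chain, had 199 in replicate 1 against 98.8 and 97.9 in replicates 2 and 3. Of the 33 examined respiratory genes 27 lay above 0, against 48.6% of all genes examined. Their median was 0.16 against -0.01 for all genes examined, or -0.73 against -0.90 when scaled to the spike-ins. STP4, a zinc finger protein, had 349 in replicate 1 against 113 and 97.1 in replicates 2 and 3, and RSC8, a subunit of a chromatin remodeller, had 489 in replicate 1 against 188 and 227 in replicates 2 and 3. The polyamine transporter TPO4 had 238 in replicate 1 against 88.7 and 82.4 in replicates 2 and 3, and the weak acid pump PDR12 had 879 in replicate 1 against 419 and 391 in replicates 2 and 3. PRY1, a secreted sterol-binding protein, had 343 in replicate 1 against 153 and 115 in replicates 2 and 3, and SER3, the first enzyme of serine synthesis, had 736 in replicate 1 against 339.6 and 362 in replicates 2 and 3. None of the 19 genes overlapped between replicate 1 and the other arrays, as the rule requires.

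Among the 13 genes lower in replicate 1, 4 act when a daughter cell separates from its mother. DSE2 (YHR143W) had 38.6 in replicate 1 against 138 and 158 in replicates 2 and 3, a log2 difference of -1.94. SCW11, a glucanase-like wall protein, had 56.5 in replicate 1 against 169 and 153 in replicates 2 and 3. CTS1, the chitinase that cuts the septum, had 144 in replicate 1 against 312 and 307 in replicates 2 and 3, and DSE4, a glucanase, had 199 in replicate 1 against 436 and 420.4 in replicates 2 and 3. These genes prompted a list of 11 genes of daughter cells and cell separation, written after their values were seen, so that its count is no support. All 10 examined members lay below 0, with a median of -0.76, and 4 were counted lower (40%) against 0.318% of all genes. EGT2, AMN1 and ASH1 differed by -0.59, -0.73 and -0.31, and between replicates 2 and 3 the members differed by -0.20 to 0.15.

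Other cell cycle genes held 1 counted member. CLB6 (YGR109C), a cyclin of the S phase, had 92.1 in replicate 1 against 291 and 300.1 in replicates 2 and 3, a difference of -1.68. Of 22 examined cyclin and CDK genes 17 lay below 0, with a median of -0.20, against 51.4% of all genes examined below 0. CLB6 was the only one counted (4.55%, against 0.318% of all genes counted lower). PCL1, a G1 cyclin, and YOX1, a repressor of cell cycle genes, were under 2-fold against replicate 2, with differences from the mean of -1.04 and -1.01. Of 44 examined DNA replication genes 29 lay below 0, with a median of -0.17 and none counted.

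RPL41A (YDL184C), a very short ribosomal protein, was the ribosomal protein gene farthest below 0, with 57.6 in replicate 1 against 376 and 354 in replicates 2 and 3, a difference of -2.66. Its probe set is of the kind that the array's design marks as shared by related transcripts, and RPL41B had none of its own. Of the other genes lower in replicate 1, GSC2, an alternative glucan synthase, had 364 in replicate 1 against 760.0 and 769 in replicates 2 and 3, and DLD3, a cytosolic 2-hydroxyglutarate transhydrogenase, had 418 in replicate 1 against 852 and 910.3 in replicates 2 and 3. PDH1, an enzyme of propionate use, had 60.9 in replicate 1 against 144 and 142 in replicates 2 and 3. JJJ3, a J protein of diphthamide synthesis, had 58.8 in replicate 1 against 122 and 124 in replicates 2 and 3, and YAR066W had 195 in replicate 1 against 467 and 463 in replicates 2 and 3. In each of these 5 genes replicates 2 and 3 lay close together. The probe set of YAR066W is marked as shared, like that of RPL41A, so the signal of YAR066W is uncertain. RTT107, a scaffold of DNA repair, had 42.9 in replicate 1 against 200.1 and 88.2 in replicates 2 and 3, and since replicates 2 and 3 themselves differed 2-fold, its level is the least settled of the 32. The only other gene that far apart between replicates 2 and 3 was YHL008C, with 49.1 in replicate 1 against 89.6 and 195 in replicates 2 and 3.

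**Figure D5:**
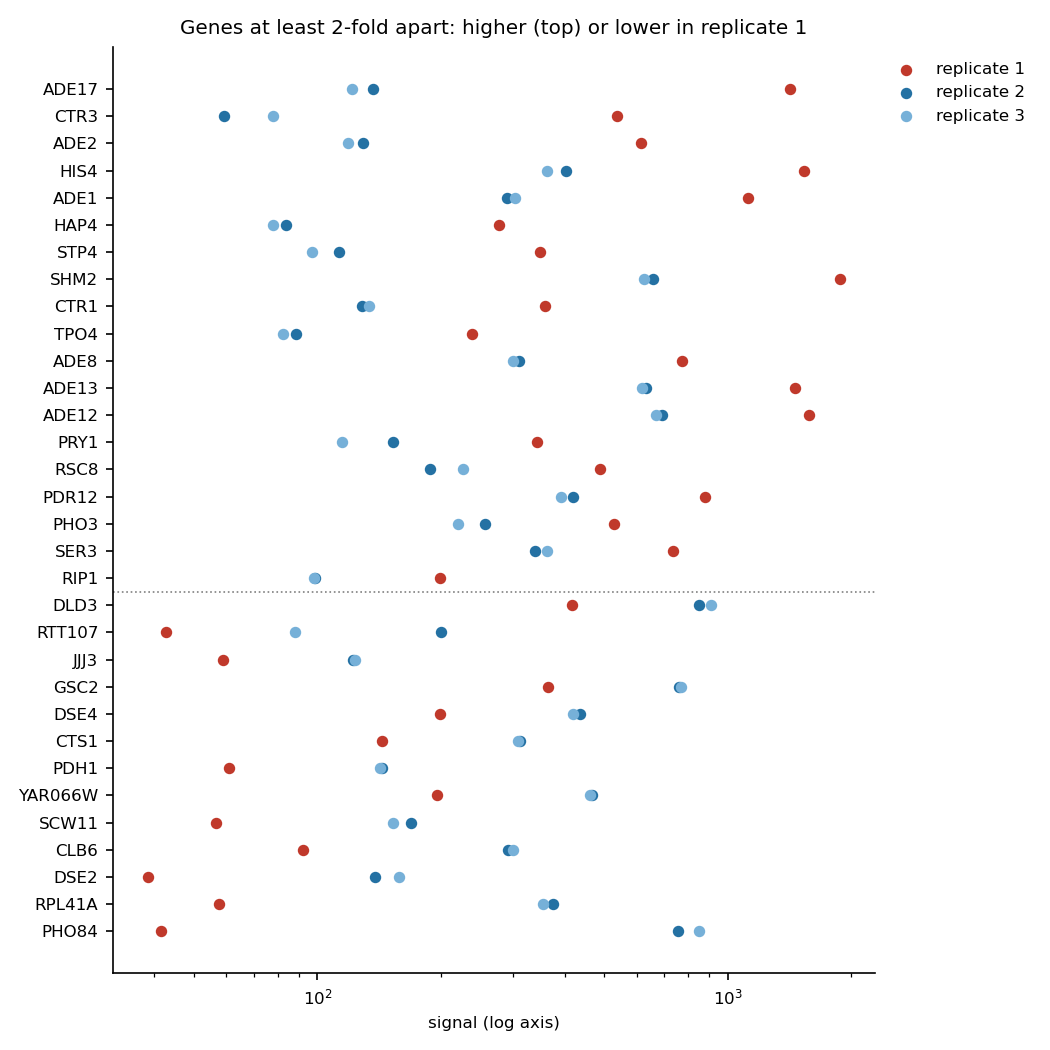
Signal (log axis) of the 32 genes on replicate 1 (red), replicate 2 (dark blue) and replicate 3 (light blue), with the 19 genes higher in replicate 1 above the dotted line and the 13 lower ones below it. Replicates 2 and 3 lie close together for nearly all genes, and RTT107 is the exception.

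Small shifts ran through whole lists of bright genes. Of 128 ribosomal protein genes 125 were higher in replicate 1 than the mean of replicates 2 and 3, with a median difference of 0.31, and 15 of 18 glycolysis genes were, with a median of 0.34. Of all genes examined 48.6% lay above 0. The shift lay in the bright genes: the brightest 10% of all genes had a median difference of 0.18, against -0.08 in the next 10% and -0.01 over all genes examined. For large subunit genes, small subunit genes and glycolysis the medians were 0.32, 0.30 and 0.34 as deposited, and 0.36, 0.34 and 0.39 with median centring. They were 0.10, 0.09 and 0.11 with cyclic loess and 0.01, 0.03 and 0.01 with quantile normalization, which removes differences tied to brightness. Scaled to the spike-ins they were -0.57, -0.59 and -0.55, against -0.90 for all genes examined. The medians thus lay above that of all genes under each scaling, by sizes that depended on it.

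Lists that lay lower in replicate 1 were of mixed brightness. The bright histone and heat shock chaperone lists had median differences of -0.11 and -0.08, against -0.01 over all genes examined. The other lists with a median percentile of at least 90 lay above 0. Of 18 examined PAU, DAN and TIR genes, cell wall proteins known for expression at low oxygen or in the cold, 17 lay below 0, with a median of -0.42 and none counted. Of all genes examined 51.4% lay below 0. TIR3 and PAU23 differed by -0.92 and -0.62, and TIR1, the brightest, by 0.13. Many of these genes are near copies, so their signals are uncertain. Of 94 ribosome biogenesis genes 73 lay below 0, with a median of -0.21 and none counted, and the medians under median centring, quantile and cyclic loess normalization were each -0.16. Of the 32 counted genes 15 belong to none of the 60 lists, and 2 are among the outermost genes of the chromosomes. For comparison, 1605 of all 5449 genes belong to a list, and 235 are among the outermost.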

How the data were processed

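The authors deposited 1 linear signal intensity per probe set and array, made with GCOS 1.4 and MAS5 per the submitters' processing notes. The scaling target and genome build were not given in the sources used here. Per the labels' protocols, total RNA from hot phenol and a column was amplified once with T7 polymerase and biotin-labelled. The trimmed mean left out 2% of an array's signals on each side.

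Log2 signals were used as deposited, and 22 of 32784 values at 0 were set to 0.1. Of 10928 probe sets, 5498 are annotated with 1 S. cerevisiae gene, 1747 with a gene of another species (1 of them with several genes), 3470 with none, and 213 are controls, 27 of them spike-ins. The brightest probe set stood for each of the 47 genes with several. Symbols came from RefSeq. Background was the 95th percentile of the other-species probe sets. Replicate 1 was compared above the 25th percentile of mean log2 signal. No test was made. The members and the 60 gene lists were chosen with earlier results of these data known, and the daughter-cell separation list after its values were seen.

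The genes named were the 25 brightest, the brightest and dimmest of a list with up to 4 more in the 8 brightest and 8 dimmest lists, up to 4 of any list with 25% of its genes at background, up to 20 counted genes in each direction and every counted gene of a list with 25% counted, mating-type, histone and marker genes and ACT1. Others were chosen after their values were seen. Alternatives were other background levels, filters, folds, scalings (with limma 3.58.1 in R 4.3.3), an added 16, the mean over probe sets, and leaving out each array. The rules were tested on simulated data. Python 3.11.15 with matplotlib 3.10.9 made the figures.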

Additional observations from a re-analysis of the deposited data

Results flagged for a closer look

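Among the 3470 probe sets that the annotation leaves without a gene, and that enter no comparison here, 274 lay above background on all 3 wild-type arrays. Of these, 128 reached a signal of 77.9 on each array, as did 0 of the 1747 probe sets for another species.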

How the results depend on the processing

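Without 1 of the 3 arrays, 80 to 110 genes lay at background and 5289 to 5307 above it, against 76 and 5283 with all 3. A background level at the 99th percentile gave 166 genes. Leaving out replicate 2 or 3 gave 19 to 25 genes higher and 15 to 19 lower in replicate 1, against 19 and 13, and without replicate 1 there is no value. Scaling to the spike-ins gave 4 higher and 1213 lower, and it turned the median of the purine list to -0.62, against -0.90 for all genes examined. With no filter on dim genes 33 were higher and 53 lower, and with a filter at the 50th percentile 8 were lower. A 1.5-fold rule gave 60 and 90, and a 4-fold rule 3 and 2. The count of lists with at least 25% of their genes counted was 1, and it was 29 with spike-in scaling, 2 without a filter, 2 with the filter at the 50th percentile, 5 at 1.5-fold, 0 at 4-fold and 1 to 3 without replicate 2 or 3. Median centring and quantile scaling kept all 19 higher genes and cyclic loess kept 18, and each kept 12 of the 13 lower ones. The cause of these shifts was not tested. Between 7 and 8 lists had a median percentile of at most 25 without 1 array, and 13 had one of at least 90. No paired analysis was possible because all 3 arrays are of 1 group.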

Other observations

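Lists outside the comparisons above spread over the middle of the range. Of 27 genes of DNA damage and ribonucleotide reductase, with a median percentile of 32.5, RNR4, the small subunit of ribonucleotide reductase, was the brightest at rank 80, and RAD55, a recombination factor, the dimmest. Splicing had a median of 38.8 over 49 genes, from SNU13 at rank 152 to SNU66, and the 46 kinetochore and spindle genes had 25.2, from SKP1 to SPC24. The 25 iron uptake genes had a median of 62.3, led by FIT3, a cell wall mannoprotein, at rank 270. The 29 genes of sulphate and methionine had 56.1, from CYS3 at rank 171 to SUL1, a sulphate permease. Stress genes lay at 51.2 over 41 genes, from YGP1 to GAC1.

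PIR3, a cell wall protein, and SSA3, an inducible chaperone, differed by 0.61 and -0.75 on the log2 scale between replicate 1 and the mean of replicates 2 and 3, and neither reached 2-fold.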
